A study of Homo sapiens with 6 samples.

Results

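The enzymes described here carry out the main steps of drug and aldehyde metabolism: aldehyde dehydrogenases (ALDH), glutathione S-transferases (GST), UDP-glucuronosyltransferases (UGT), sulfotransferases (SULT) and cytochromes P450 of families 1 to 4 (CYP). They were chosen by gene symbol alone, as every matching gene with a probe set of its own, without ALDH1A1 and ALDH1A3. Matching symbols begin with ALDH, GST (classes A, M, O, P, T, Z and K), UGT1, UGT2, SULT1 or SULT2. For the CYP genes, the symbol is CYP1 to CYP4 followed by a letter and a number only, as in CYP1A1. This gave 79 of 19775 genes: 19 ALDH, 16 GST, 7 UGT, 7 SULT and 30 CYP genes. Where a gene had several probe sets, its highest-reading probe set by the mean of all 6 arrays was used. RefSeq lists 3 of the 79 as not protein coding. They are the antisense RNAs ALDH1A2-AS1 and ALDH1L1-AS2, which make no enzyme, and GSTT2, listed as a transcribed pseudogene. Whether the RNA read by the GSTT2 probe set makes an enzyme in these cells was not tested.

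The cells were SUM159, an established human breast cancer line. In the SCGB3A1 group (3 arrays) they had been transduced with the lentiviral vector pLVX-puro carrying a synthesized cDNA of SCGB3A1, a small secreted secretoglobin, and in the control group (3 arrays) with the empty vector. Both groups went through a 7 day selection in puromycin (2 µg/ml) before sphere culture, in which cells seeded at 12500 cells/ml on ultra-low attachment plates formed floating oncospheres over 5 days. From each culture, 100 ng of total RNA was labelled for 1 Affymetrix U133 Plus 2.0 array, and the values are log2 readings after robust multiarray average (RMA) normalization. The titles call the arrays biological replicates, but whether each came from a separate transduction is not given in the sources used here, so p-values measure only the spread between these samples.

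Cytochromes P450 insert oxygen into drugs, steroids and fatty acids, and aldehyde dehydrogenases oxidize reactive aldehydes to acids. GST, UGT and SULT enzymes then attach glutathione, glucuronic acid or sulfate, which makes a compound easier to export. The liver is the tissue best known for these enzymes, but tumour cells also carry some of them, where GSTP1 and several ALDH enzymes are known for handling cytotoxic drugs and aldehydes. High ALDH activity is also used to sort stem-like cells from breast tumours.

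The probe set of SCGB3A1 read 6.60, 6.92 and 6.71 in the SCGB3A1 arrays, against 6.80, 6.89 and 7.05 in control arrays (log2 fold change -0.17 ± 0.10 SE, limma adjusted p = 0.835). Whether it covers the sequence in the vector is not known here, so it may check nothing, and the groups are named as labelled. Control replicate 2 stood apart, with correlations of 0.989 to 0.993 with the other arrays, against 0.993 to 0.996 among the rest. GAPDH 3' minus 5' control readings were -0.13 ± 0.03 in SCGB3A1 arrays and -0.10 ± 0.05 in control arrays (SD, n = 3 each; p = 0.5 by an exact permutation test, two-sided, which cannot go below 0.1 at this size). The mesenchymal markers VIM and FN1 read 14.1 or higher on all 6 arrays, and of 6 epithelial markers KRT7, KRT8 and KRT18 read 10.37 to 11.59 and KRT19, EPCAM and CDH1 read 6.07 to 6.59. Among 7 hepatocyte markers, whose mean reading was 6.88 to 6.99 in SCGB3A1 arrays and 6.82 to 6.86 in control arrays, ALB read 6.20 to 6.36, while APOB (0.23) and SERPINA1 (0.22) had unadjusted p under 0.05 (adjusted p = 0.717 and 0.759). The part of these readings in the results below was not tested.

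No enzyme of the 79 differed between SCGB3A1 and control spheres past an adjusted p of 0.05 by limma (0 of 79), where 0.0183% of all 54613 probe sets and 0.0303% of all 19775 genes did. Likewise 0 of 79 met the study's signature thresholds (a log2 fold change beyond 0.5 with p under 0.05 and adjusted p under 0.25), which 0.0311% of probe sets and 0.0607% of genes met. At an unadjusted p under 0.05, 4 of 79 enzymes passed (5.06%), against 6.2% of all probe sets and 6.82% of all genes. These were ALDH1L1, ALDH3B2 and SULT1A1, with higher readings in SCGB3A1 arrays, and CYP3A5, with lower ones. Adjusted p-values of the 79 ran between 0.759 and 0.999. In bulk RNA of this kind, a change in the number of cells that hold a transcript and a change in its amount per cell cannot be told apart.

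The fold changes were small in absolute terms, with narrow intervals. They ran between -0.19 (CYP3A5) and 0.24 (ALDH1L1) on the log2 scale, and 55 of 79 lay within 0.1 of 0. The 95% interval lay inside a log2 change of 0.5 in either direction for 78 of 79 enzymes, against 98.4% of all probe sets and 98.3% of genes. The exception was ALDH4A1, a mitochondrial enzyme of proline breakdown, which read 7.19, 7.29 and 7.48 in SCGB3A1 arrays, against 7.14, 8.0 and 7.25 in control arrays. Its fold change of -0.15 had an interval of -0.53 to 0.24, and control replicate 2 was the array apart. ALDH4A1 had the widest range over the 6 arrays among the 79, 0.862, followed by CYP4F12 at 0.540. Mean readings of 38 of the 79 lay at or below the median of all probe sets (6.91), where RMA can make fold changes too small. For those, a narrow interval does not bound the change in RNA. The plot of fold changes with their intervals shows all 79.

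**Figure D1:**
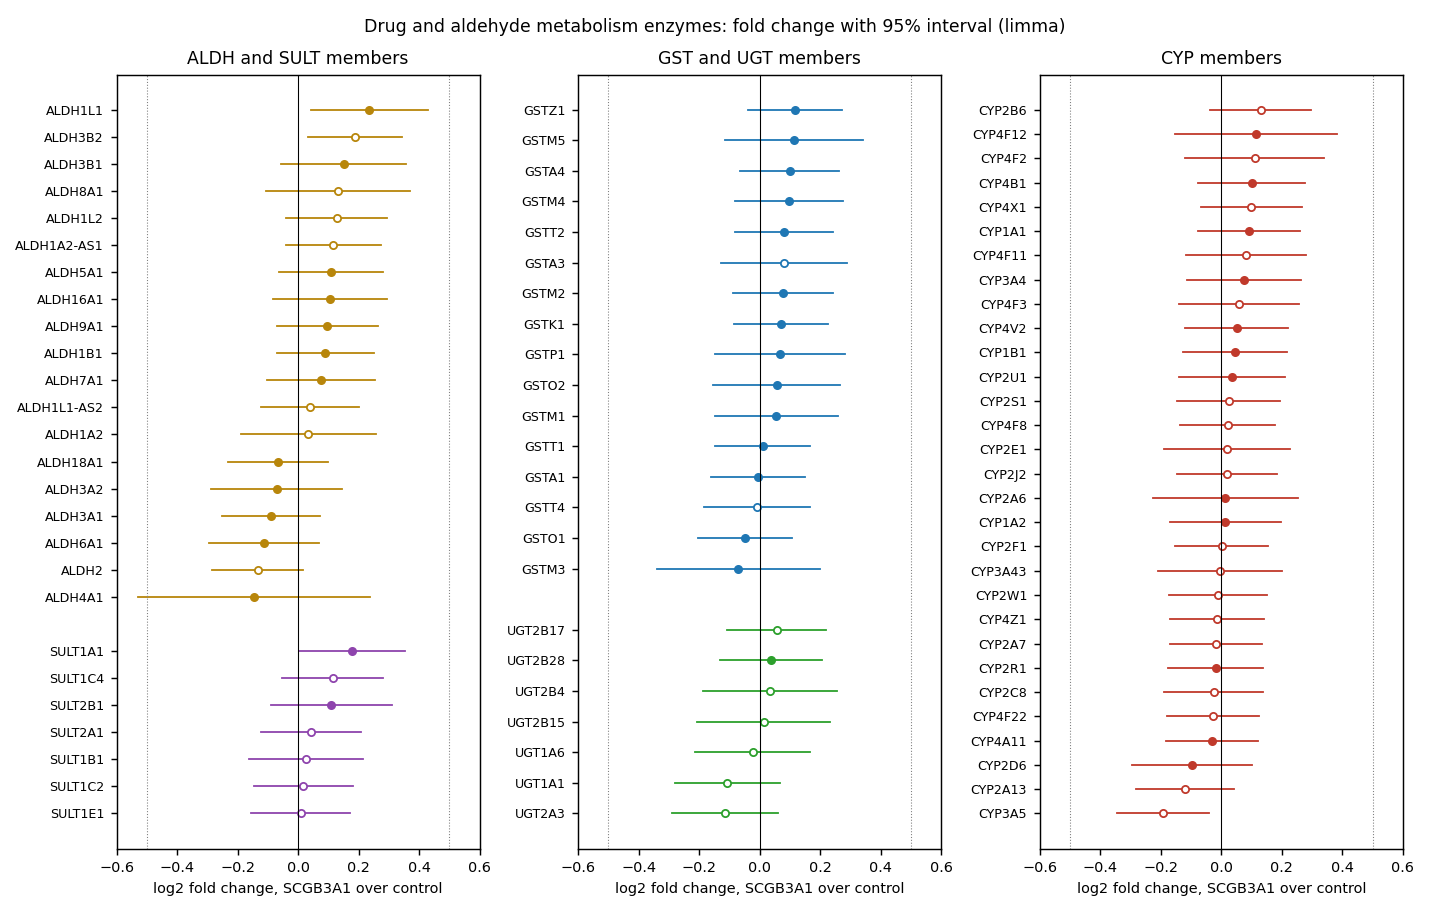
Log2 fold change (SCGB3A1 over control, 3 arrays each) of the 79 enzymes with its 95% interval from limma; filled points have a mean reading above the median of all probe sets (6.91), open points do not, and dotted lines mark 0.5 in either direction. Points lie between -0.19 and 0.24, and the interval of ALDH4A1 alone passes a dotted line.

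More fold changes were above 0 than below it: 55 of 79 (69.6%), where 54.3% of all 19775 genes and 51% of all probe sets were above 0. The median was 0.037 for the 79, against 0.011 for all genes. The median deviation from the control mean was 0.040, 0.066 and 0.0064 in the SCGB3A1 arrays, against 0.0047, -0.0088 and 0.00083 in the control arrays, so SCGB3A1 replicate 3 lay close to control. By family the medians were 0.090 for ALDH, 0.068 for GST, 0.014 for UGT, 0.043 for SULT and 0.018 for CYP. All 7 SULT genes were above 0, as were 13 of 19 ALDH, 12 of 16 GST, 4 of 7 UGT and 19 of 30 CYP genes. These counts depend on the probe set used. SULT1A1, SULT1C2 and SULT1E1 each had another probe set below 0, while SULT2A1 had none. Of the 40 enzymes with several probe sets, 25 had fold changes of both signs. The single-gene standard error was 0.069 to 0.176 (median 0.079).

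The groups did not overlap for 5 of 79 enzymes (6.33%), below the 11.2% of all probe sets and 12.3% of all genes with no overlap. Of these, 3 (ALDH3B2, GSTZ1 and ALDH1A2-AS1) read higher in every SCGB3A1 array than in any control array, as did 5.95% of probe sets and 7.09% of genes, and 2 (CYP3A5 and ALDH2) read lower, as did 5.25% of probe sets and 5.24% of genes. Mean readings lay above the median of all probe sets (6.91) for 41 of 79 enzymes (51.9%, against 50% of probe sets and 64% of genes), among them 12 of 19 ALDH, 14 of 16 GST, 1 of 7 UGT, 2 of 7 SULT and 12 of 30 CYP genes. The median fold change was 0.067 over the 41 and 0.019 over the other 38.

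Among aldehyde dehydrogenases, ALDH1L1 had the highest fold change of all 79 enzymes. ALDH1L1, which oxidizes formyltetrahydrofolate in folate metabolism, read 7.50, 7.43 and 7.17 in SCGB3A1 arrays, against 7.14, 7.08 and 7.17 in control arrays. SCGB3A1 replicates 1 and 2 lay above all control arrays and replicate 3 read as control replicate 3 did (log2 fold change 0.24 ± 0.09 SE, limma adjusted p = 0.782). ALDH3B2, a member of the lipid aldehyde subfamily, read 6.42, 6.41 and 6.29 in SCGB3A1 arrays, against 6.19, 6.17 and 6.19 in control arrays (0.19 ± 0.07, limma adjusted p = 0.782). The groups were apart at this probe set, but its other probe set gave -0.03. ALDH2, the mitochondrial enzyme that clears acetaldehyde, read 6.54, 6.55 and 6.51 in SCGB3A1 arrays, against 6.70, 6.62 and 6.68 in control arrays (-0.13 ± 0.07, limma adjusted p = 0.823). Its control readings were all above its SCGB3A1 readings, on a probe set near the floor (mean 6.60). The probe sets used for ALDH3B2 (6.28), CYP3A5 (6.33) and ALDH1A2-AS1 (6.03) read nearer to the floor still.

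ALDH3A1, a dehydrogenase of cornea and stomach that also oxidizes drug-derived aldehydes, read 8.21, 8.19 and 8.26 in SCGB3A1 arrays, against 8.26, 8.42 and 8.26 in control arrays (-0.09, adjusted p = 0.887). ALDH3B1, which oxidizes lipid-derived aldehydes, read 7.97, 8.12 and 7.98 in SCGB3A1 arrays, against 7.93, 7.67 and 8.02 in control arrays (0.15, adjusted p = 0.849), and the groups overlapped. ALDH1L2, the mitochondrial relative of ALDH1L1, gave 0.13 and ALDH5A1, which degrades the succinic semialdehyde formed from GABA, 0.11. ALDH5A1 had another probe set at -0.17 (limma adjusted p = 0.791), with readings of 6.63, 6.65 and 6.77 in SCGB3A1 arrays, all below the 6.85, 6.87 and 6.84 of control arrays, so its 2 probe sets pointed in opposite directions. The antisense RNA ALDH1A2-AS1 read 6.01, 6.09 and 6.17 in SCGB3A1 arrays, against 5.99, 5.97 and 5.97 in control arrays (0.12, adjusted p = 0.849). ALDH1A2 itself, a retinal dehydrogenase, gave 0.03 ± 0.10 SE. Overlap between the 2 transcripts was not examined here.

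ALDH1A1 and ALDH1A3, the retinal dehydrogenases linked to high ALDH activity in stem-like breast cells, were not among the 79. ALDH1A3 read 7.08, 7.12 and 6.92 in SCGB3A1 arrays, against 6.81, 6.75 and 7.01 in control arrays (0.18 ± 0.09 SE, limma adjusted p = 0.816), and ALDH1A1 gave 0.11 (adjusted p = 0.877).

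The cytochromes P450 held the lowest fold change. CYP3A5, a CYP3A enzyme found in liver and in several other tissues, read 6.26, 6.23 and 6.21 in SCGB3A1 arrays, against 6.48, 6.42 and 6.38 in control arrays (-0.19 ± 0.07 SE, limma adjusted p = 0.759). The groups did not overlap there, but the 4 probe sets of CYP3A5 gave -0.19, -0.09, -0.05 and 0.13, and the probe set at 0.13 had no overlap in the opposite direction (6.31, 6.31 and 6.46 in SCGB3A1 arrays, against 6.24, 6.25 and 6.19 in control arrays). CYP3A4, the best known drug-metabolizing P450 of liver, gave 0.08 (adjusted p = 0.920), and its value was -0.0082 without SCGB3A1 replicate 1. That probe set (mean 7.67) carries the maker's mark for possible cross-hybridization. The others of CYP3A4 had means of 6.64 or lower, and its 5 probe sets gave -0.02 to 0.15. CYP2B6, which oxidizes cyclophosphamide, read 6.52, 6.67 and 6.66 in SCGB3A1 arrays, against 6.48, 6.56 and 6.43 in control arrays (0.13, adjusted p = 0.842). CYP2A13, a P450 of the respiratory tract that activates a tobacco nitrosamine, gave -0.12 (adjusted p = 0.849), and CYP2D6, which oxidizes tamoxifen among many drugs, -0.10 (adjusted p = 0.900).

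The CYP1 enzymes, which oxidize aromatic hydrocarbons and are textbook targets of the aryl hydrocarbon receptor AHR, lay close to 0. CYP1A1 read 7.12, 7.26 and 7.21 in SCGB3A1 arrays, against 7.21, 7.04 and 7.07 in control arrays (0.09 ± 0.08 SE, adjusted p = 0.889). CYP1B1 read 8.34, 8.32 and 8.21 in SCGB3A1 arrays, against 8.33, 8.13 and 8.26 in control arrays (0.05 ± 0.08 SE, adjusted p = 0.949). Its 4 probe sets spread between -0.18 and 0.13 with none at p under 0.05, so no direction was given by the gene as a whole. CYP4V2, a fatty acid hydroxylase known from the retina, gave 0.05 on the probe set used, while another of its 4 probe sets gave 0.15 (limma adjusted p = 0.805) with 8.63, 8.63 and 8.68 in SCGB3A1 arrays and 8.45, 8.53 and 8.50 in control arrays. CYP2E1, which oxidizes ethanol, gave 0.02 on the probe set used and 0.22 (limma adjusted p = 0.737) on another, while its remaining 2 gave 0.00 each. It was singled out after its values were seen.

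The glutathione S-transferases had fold changes between -0.07 (GSTM3) and 0.12 (GSTZ1). GSTZ1, which isomerizes maleylacetoacetate in tyrosine breakdown, read 8.84, 8.87 and 8.97 in SCGB3A1 arrays, against 8.79, 8.75 and 8.80 in control arrays (0.12 ± 0.07 SE, limma adjusted p = 0.849). Its groups were apart but by less than the standard error. GSTA4, which conjugates the lipid peroxidation product hydroxynonenal, read 10.50, 10.52 and 10.43 in SCGB3A1 arrays, against 10.42, 10.29 and 10.45 in control arrays (0.10, adjusted p = 0.876). GSTP1, the pi-class transferase known for detoxifying alkylating and platinum drugs in tumours, read 11.78, 11.77 and 11.54 in SCGB3A1 arrays, against 11.71, 11.43 and 11.74 in control arrays (0.07 ± 0.10 SE, adjusted p = 0.942). SCGB3A1 replicate 3 and control replicate 2 were its low arrays, and the fold change was -0.03 without control replicate 2.

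The 5 GSTM genes lie side by side on the chromosome and share much of their sequence, so their probe sets may read each other's transcripts. Their fold changes were -0.07 (GSTM3), 0.05 (GSTM1), 0.08 (GSTM2), 0.10 (GSTM4) and 0.11 (GSTM5), with 0 of 5 at p under 0.05. GSTM1, a mu-class transferase of broad substrate range, read 8.17, 8.12 and 7.94 in SCGB3A1 arrays, against 8.16, 7.86 and 8.05 in control arrays. Control replicate 2 was the lowest control array at all 5, with a median deviation of -0.16, and GSTM1 gave -0.03 without it. The 3 GSTA genes gave -0.01 to 0.10.

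Of the sulfotransferases, SULT1A1, which sulfates phenols and tamoxifen metabolites, read 8.28, 8.47 and 8.46 in SCGB3A1 arrays, against 8.22, 8.15 and 8.30 in control arrays (0.18 ± 0.08 SE, limma adjusted p = 0.804). SCGB3A1 replicate 1 lay between control arrays and the other 2 lay above them. Another of its 3 probe sets gave 0.30 ± 0.09 (limma adjusted p = 0.717) with no overlap, at 8.19, 8.22 and 8.11 in SCGB3A1 arrays and 8.02, 7.67 and 7.93 in control arrays. The third gave -0.08, and it is the only 1 of the 3 whose design name does not carry the maker's mark for cross-hybridization, and whether the others read related transcripts was not tested. SULT1A3 and SULT1A4, near-identical copies that sulfate dopamine, were read only by 4 probe sets shared between genes, with fold changes of -0.09 to 0.18 (1 of 4 at p under 0.05, adjusted p = 0.784). SULT1C4 gave 0.11 (adjusted p = 0.861) and SULT2B1, the cholesterol sulfotransferase of skin, 0.11 (adjusted p = 0.887), both with overlapping groups. SULT1E1, the oestrogen sulfotransferase, gave 0.01, and SULT2A1, which sulfates DHEA, 0.04.

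**Figure D2:**
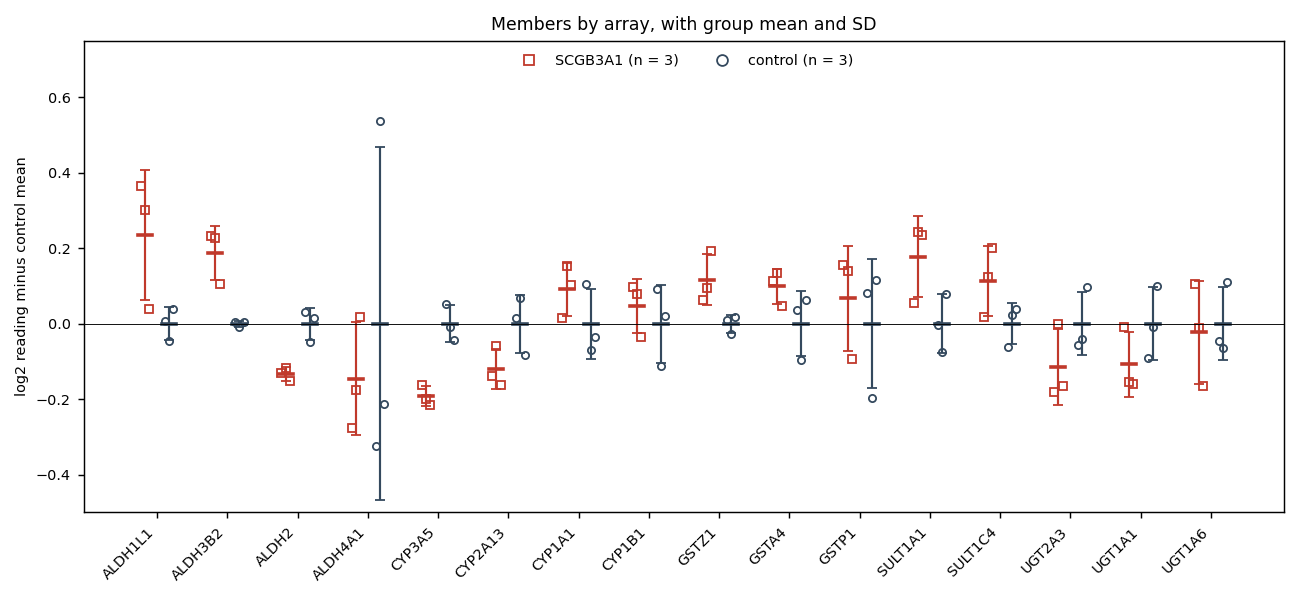
Log2 readings of 16 enzymes on each array, drawn as the difference from the gene's own control mean, with SCGB3A1 arrays (squares) left of control arrays (circles), a bar for the group mean and error bars of 1 SD (n = 3). The groups are apart for ALDH3B2, ALDH2, CYP3A5 and GSTZ1, and control replicate 2 of ALDH4A1 stands 0.54 above its group mean.

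The 7 UGT genes with a probe set of their own had 0 of 7 at p under 0.05 by limma, and all of their groups overlapped. UGT1A1, which conjugates bilirubin, read 6.48, 6.33 and 6.33 in SCGB3A1 arrays, against 6.40, 6.48 and 6.59 in control arrays (-0.11 ± 0.08 SE, adjusted p = 0.872). UGT1A6, which conjugates small phenols such as paracetamol, read 6.60, 6.48 and 6.33 in SCGB3A1 arrays, against 6.44, 6.43 and 6.60 in control arrays (-0.02 ± 0.09 SE, adjusted p = 0.977). UGT2A3 gave -0.11 (adjusted p = 0.863) and UGT2B17, which conjugates androgens, 0.06 (adjusted p = 0.931). Of these 7, UGT2B28 alone had a mean reading above the median of all probe sets, and it gave 0.04. Its probe set carries the maker's mark for possible cross-hybridization, and whether it reads related transcripts was not tested.

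The UGT1A locus gave a different reading through probe sets shared between its genes, which the selection by a single symbol leaves out. The UGT1A genes have their own promoters and first exons, spliced to the same last exons, so a probe set in the shared part reads all of them together. There were 7 probe sets annotated to between 5 and 9 UGT1A genes each, and they were singled out after their values were seen. Whether they lie in the shared exons was not examined. All 7 read higher in every SCGB3A1 array than in any control array, where 5.95% of all probe sets did. Their fold changes were 0.18 to 0.52 (median 0.38), with unadjusted limma p between 2.28e-05 and 0.049 and adjusted p between 0.083 and 0.805. They read overlapping transcripts of 1 locus, so they are not 7 independent results.

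The shared probe set with the highest fold change, annotated to 6 of the genes, read 9.31, 9.26 and 9.18 in SCGB3A1 arrays, against 8.75, 8.62 and 8.82 in control arrays. The lowest SCGB3A1 array lay above the highest control array, and the log2 fold change was 0.52 ± 0.08 SE, with a 95% interval of 0.35 to 0.69 (limma adjusted p = 0.083). It met the study's signature thresholds, as 0.0311% of all probe sets did, and 0 of the 7 passed an adjusted p of 0.05. It no longer met them without SCGB3A1 replicate 1 or 2, without control replicate 1 or 2, with array weights, or without cross-hybridizing probe sets, a filter that removes it. Without SCGB3A1 replicate 1 the highest fold change of the 7 was 0.49 and their lowest adjusted p 0.523, so both thresholds were missed. In the runs that follow, values are again the highest fold change and the lowest limma adjusted p of the 7. The adjusted p alone was missed without SCGB3A1 replicate 2 (0.54, adjusted p = 0.649) and without control replicate 1 (0.53, adjusted p = 0.333). The 0.54 was at another of the 7, not at the probe set described here. The fold alone was missed without control replicate 2 (0.47, adjusted p = 0.201) and with array weights (0.498, adjusted p = 0.041). Another, annotated to 9 genes, read 8.77, 8.59 and 8.73 in SCGB3A1 arrays, against 8.28, 8.06 and 8.31 in control arrays (0.48 ± 0.09 SE, adjusted p = 0.255). A further probe set annotated to 9 genes read 9.01, 8.92 and 9.11 in SCGB3A1 arrays, against 8.61, 8.56 and 8.71 in control arrays (0.39 ± 0.08 SE, adjusted p = 0.317). At both, the groups were apart on all 6 arrays. Control replicate 2 was the lowest control array at all 7, and without it the 7 gave 0.10 to 0.47 and did not overlap in 7 of 7. Which UGT1A transcript these readings come from was not tested, and the probe sets annotated to UGT1A1 or UGT1A6 alone had readings near the floor.

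**Figure D3:**
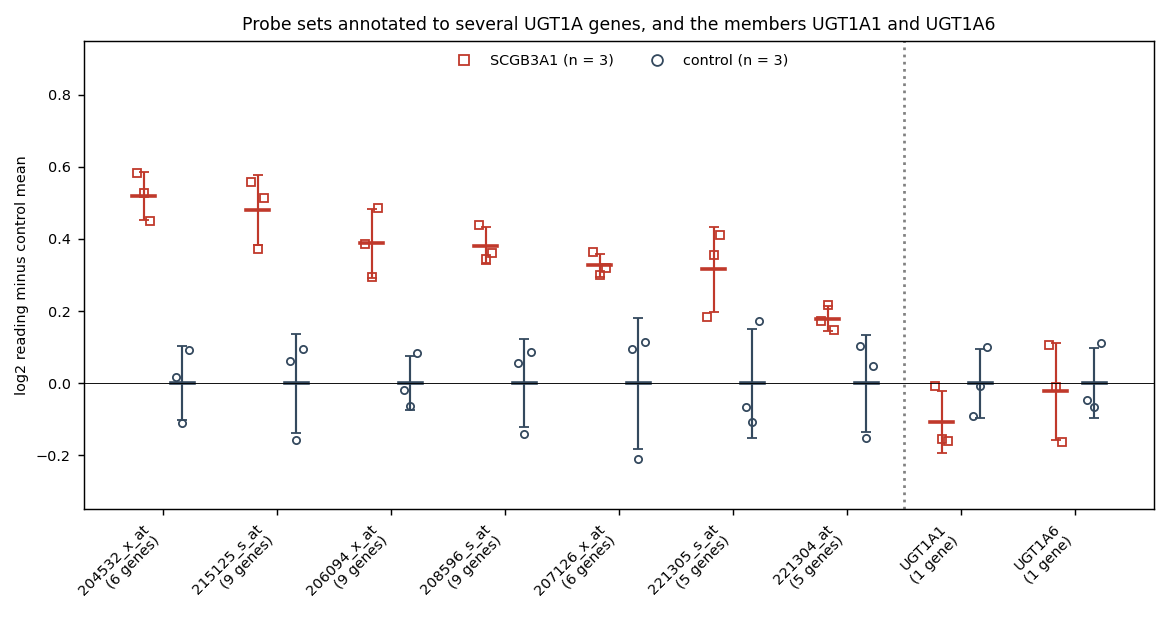
Log2 readings of the 7 probe sets annotated to several UGT1A genes (left of the dotted line) and of UGT1A1 and UGT1A6 (right), each as the difference from its own control mean, for SCGB3A1 arrays (squares) and control arrays (circles), with bars for group means and error bars of 1 SD (n = 3). The SCGB3A1 squares lie above the control circles at all 7 shared probe sets, whose fold changes are 0.18 to 0.52, and among them at UGT1A1 and UGT1A6.

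The promoters of 8 UGT1A genes matched in the RefSeq table (GRCh38.p14) lie on chromosome 2 in the order UGT1A8, UGT1A9, UGT1A7, UGT1A6, UGT1A5, UGT1A4, UGT1A3 and UGT1A1, all on the plus strand, and UGT1A10 is not shown. The 250 bases before the start are shown for the UGT1A genes that had probe sets of their own, UGT1A6 (chr2:233691452-233691701, plus strand) and UGT1A1 (chr2:233760020-233760269, plus strand), since the shared probe sets cannot separate them. Capitals mark a match to the core of the xenobiotic response element bound by AHR with ARNT (XRE, TNGCGTG, either strand), which UGT1A6 holds and UGT1A1 does not within this window.
UGT1A6: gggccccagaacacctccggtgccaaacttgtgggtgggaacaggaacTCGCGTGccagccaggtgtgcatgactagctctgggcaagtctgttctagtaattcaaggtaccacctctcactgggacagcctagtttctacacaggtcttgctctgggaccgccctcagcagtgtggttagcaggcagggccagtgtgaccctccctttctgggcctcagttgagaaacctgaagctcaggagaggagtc
UGT1A1: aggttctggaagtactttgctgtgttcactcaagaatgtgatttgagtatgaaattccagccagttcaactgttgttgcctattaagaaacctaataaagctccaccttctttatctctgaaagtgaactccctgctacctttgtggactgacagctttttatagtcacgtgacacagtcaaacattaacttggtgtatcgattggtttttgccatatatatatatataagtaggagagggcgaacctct

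Promoter windows of 300 bases, 250 before and 50 after the first start listed for each gene, were found for 63 of the 79 enzymes. The XRE core was in 3 of 63 (4.76%), GSTM5, SULT2B1 and UGT1A6, against 5.51% of 27305 promoters of that length. Their fold changes were 0.11, 0.11 and -0.02. The core of the antioxidant response element bound by NFE2L2 (ARE, TGACNNNGC, either strand) was in 11 of 63 (17.5%), against 13.6% of all promoters, and 5 of the 11 were GST genes (GSTA4, GSTM1, GSTM5, GSTO1 and GSTP1), with fold changes of -0.05 to 0.11. AHR read 10.27, 10.29 and 10.48 in SCGB3A1 arrays, against 10.24, 10.44 and 10.25 in control arrays (0.04, adjusted p = 0.963), and NFE2L2 gave 0.08 (adjusted p = 0.903). A match is a description of the letters, not a bound site.

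GSTP1 is shown as a textbook tumour GST with such a match (chr11:67583562-67583811 on GRCh38.p14, plus strand, from RefSeq), again as the 250 bases before the start. Capitals mark the ARE core, 66 bases before the start, which also holds the AP-1 core TGACTCA.
GSTP1: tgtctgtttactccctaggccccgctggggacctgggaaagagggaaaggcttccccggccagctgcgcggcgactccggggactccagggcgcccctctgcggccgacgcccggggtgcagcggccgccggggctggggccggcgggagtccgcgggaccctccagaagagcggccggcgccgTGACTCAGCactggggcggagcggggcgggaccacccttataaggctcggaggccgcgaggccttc

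Several probe sets of 1 gene often did not give the same answer. The 79 enzymes had 148 probe sets, of which 8 had p under 0.05, where 6.2% of all probe sets did, and 0 passed an adjusted p of 0.05 (lowest 0.717, limma). Of 40 enzymes with more than 1 probe set, 25 had fold changes of both signs and 15 of 1 sign. SULT1A1 had the widest spread, -0.08 to 0.30, followed by ALDH3B1 and CYP3A5 in the plot of all probe sets by gene. The chosen probe set carried the maker's mark for possible cross-hybridization or shared transcripts for 32 of 79 enzymes.

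**Figure D4:**
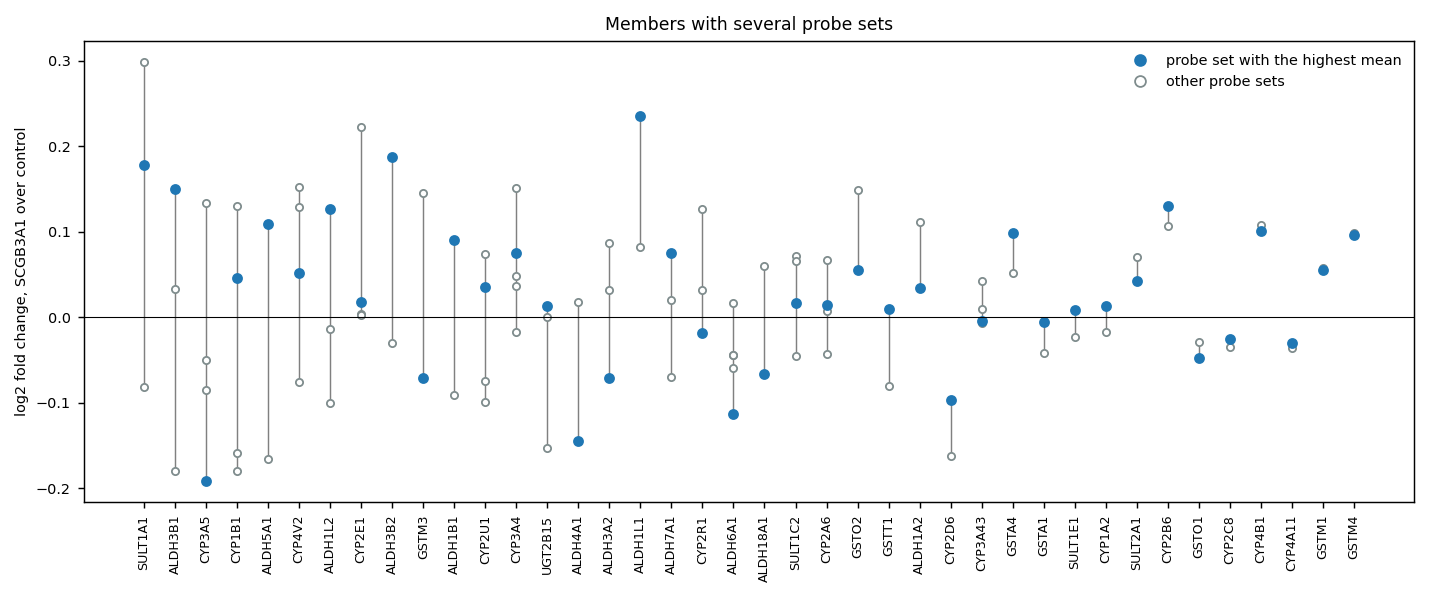
Log2 fold change (SCGB3A1 over control) of every probe set of the 40 enzymes with more than 1, ordered by their spread; filled points are the probe sets with the highest mean, open points the others. The lines cross 0 for 25 of the 40.

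Genes that work around these enzymes were read from lists of related functions, chosen with earlier results of these data known. The shares of these lists with limma p under 0.05 are therefore not independent evidence. Of 31 other phase I enzymes, 8 had p under 0.05 (25.8%, against 6.2% of all probe sets and 6.82% of genes), 6 of them higher and 2 lower, with a median of 0.05 and 0 past an adjusted p of 0.05 (lowest 0.288). They were led by flavin monooxygenases, which oxidize nitrogen and sulfur in drugs. FMO1 read 8.27, 8.35 and 8.40 in SCGB3A1 arrays, against 7.72, 7.82 and 8.06 in control arrays (0.47 ± 0.09 SE, adjusted p = 0.288). The study lists FMO1 in the signature it chose on these arrays, which is therefore not independent evidence, but in the limma fit used here it met neither the fold nor the adjusted p threshold. FMO2 read 7.47, 7.42 and 7.50 in SCGB3A1 arrays, against 7.00, 6.99 and 7.21 in control arrays (0.40 ± 0.08 SE, adjusted p = 0.315). Both had no overlap between the groups, and ADH6, an alcohol dehydrogenase, was apart in the other direction (-0.32, adjusted p = 0.705). ADH6 had a mean reading of 6.56, below the median of all probe sets.

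For the shares below, limma p was under 0.05 for 6.2% of all probe sets and 6.82% of genes. Among the conjugation partners, 14 other conjugation enzymes had a median of 0.00 with 1 at p under 0.05 (7.14%). It was PTGES (0.27), a prostaglandin synthase of the glutathione-dependent kind. The 11 genes that supply cofactors had a median of 0.09 with 1 at p under 0.05 (9.09%). It was PAPSS2, which makes the sulfate donor used by the SULT enzymes (0.19, adjusted p = 0.784). Of 21 drug transporters, with a median of 0.04, 3 had p under 0.05 (14.3%). They were ABCB11 (0.25), SLC47A2 (0.24) and ABCC1 (0.19), which exports glutathione conjugates. ABCB11 had a mean reading of 6.58, below the median of all probe sets. The 14 other cytochromes P450, 13 regulators and 12 retinoid pathway genes had 0 at p under 0.05 and medians of 0.04, -0.04 and 0.08. None of these lists held a gene past an adjusted p of 0.05 by limma (0 in each).

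**Figure D5:**
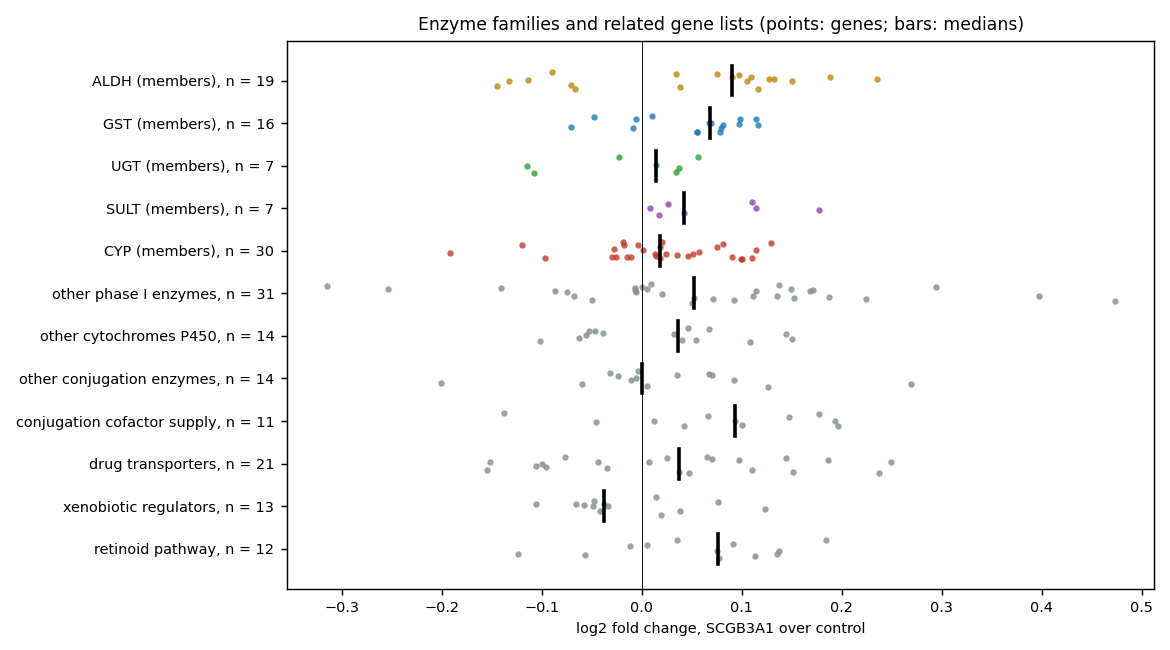
Log2 fold change (SCGB3A1 over control, horizontal axis) of each gene in the 5 enzyme families (coloured) and 7 lists of related genes (grey), with a bar at each median; vertical scatter within a row has no meaning. The enzyme families lie between -0.19 and 0.24, and FMO1 at 0.47 is the highest gene plotted.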

How the data were processed

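The deposited table holds log2 values of 6 arrays, which the authors made from scanner files by RMA in Chipster (background correction, quantile normalization and summary by probe set). Quantile normalization gives all arrays the same distribution, so a change in total RNA cannot be seen, and RMA draws low readings to a floor, which can make fold changes of weakly read genes too small. The table holds no detection calls, and no column was left unused. Precision is limited by the number of arrays. The 54675 probe sets include 62 manufacturer controls, which were left out, and gene names come from the platform annotation held by GEO. SCGB3A1 (3 arrays) and control (3 arrays) were compared by limma 3.58.1 in R 4.3.3 (lmFit and eBayes, two-sided), with p-values adjusted over 54613 probe sets by the Benjamini-Hochberg method, after the empirical Bayes comparison in the study's methods. This test gave every adjusted p printed, and ± after a fold change is its standard error. The fit was tested on simulated data with known changes. The enzymes, the lists of related genes and the markers were chosen with earlier results of these data known. Enzymes named were the 12 with the smallest p, those with no overlap between groups, the 3 with the smallest p in each family, those whose probe sets differ in sign with 1 at p under 0.05, and textbook drug enzymes. ALDH4A1, CYP4F12, CYP2E1, ALDH1A2, UGT2B28, SULT1E1, SULT2A1, GSTM2, GSTM3, GSTM5, SULT1A3, SULT1A4, AHR and NFE2L2 were added after their values were seen. Promoter sequences are from RefSeq (GRCh38.p14) and were matched by symbol. Alternatives were another normalization, centring, a variance trend, array weights, a replicate block, filters on dim and cross-hybridizing probe sets, other choices of probe set per gene, and leaving out each array.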

Additional observations from a re-analysis of the deposited data

How the results depend on the processing

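In every alternative run, 0 of the 79 enzymes passed an adjusted p of 0.05 or the signature thresholds. The lowest adjusted p among the enzymes named was 0.381, without SCGB3A1 replicate 3. The number of enzymes with no overlap between groups, 5 of 79, was 1 of 41 without dim probe sets (13.9% of all genes), 9 with a gene's probe sets averaged (13%), 9 with the probe set of highest variance (11.7%), and 9 to 23 with 1 array left out (19.6% to 28.5%), where 2 arrays in a group overlap less by construction. The median fold change of the enzymes, 0.037, was 0.067 without dim probe sets and 0.027 to 0.054 with 1 array left out. For the 28 enzymes named by rule, 336 of 345 comparisons kept their direction and call and 9 changed direction. These include no other rule for choosing the probe set of a gene. They do include the filter on cross-hybridizing probe sets, which can remove the chosen probe set so that another is read. Without cross-hybridizing probe sets, CYP3A5 gave 0.13 and SULT1A1 -0.082, each on another probe set of the gene than the main fit used. With 1 array left out, ranges crossed 0 for CYP3A4 (-0.0082 to 0.16), CYP4V2 (-0.0025 to 0.10), UGT1A6 (-0.088 to 0.048), CYP1B1 (-0.0098 to 0.092), GSTM1 (-0.029 to 0.12) and GSTP1 (-0.031 to 0.15). The cause of these crossings with 1 array left out was not tested.

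Settings for the 7 shared UGT1A probe sets were added after seeing the data. Of the 7, 0 met the signature thresholds with array weights and 0 to 1 with 1 array left out, while all 7 did not overlap in each such run and their median was 0.31 to 0.42. Without cross-hybridizing probe sets 1 of the 7 was left, since the filter removed the others. Its groups did not overlap and its fold change was 0.18, as in the main fit, so 0 met the signature thresholds. With an intensity trend in the variance the lowest adjusted p was 0.037 and with array weights 0.041, so 1 of 7 passed 0.05 in each.

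The titles number the replicates 1 to 3 in both groups. Deviations of same-numbered arrays from their group means had correlations of 0.15, -0.14 and -0.09 over all probe sets. Whether such arrays share more than a number is not given in the titles, and 3 correlations cannot decide it. With a replicate block, 0 of 79 enzymes passed an adjusted p of 0.05, 5 of 79 did not overlap, and the lowest adjusted p of the UGT1A probe sets was 0.242. With 3 arrays a group, the 95% intervals above bound the changes in the readings.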

Other observations

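Of the symbols that fit the selection, 14 genes were read only by probe sets shared between genes: CYP2D7, CYP3A7, CYP4A22, SULT1A3, SULT1A4, UGT2A1, UGT2A2 and 7 UGT1A genes. There were 20 such probe sets in all, and outside the UGT1A and SULT1A loci the 9 others had fold changes of -0.10 to 0.12 with 0 at p under 0.05 by limma, and so 0 past an adjusted p of 0.05. Control replicate 2 was the array farthest from its group's other arrays for 40 of 79 enzymes, and SCGB3A1 replicate 3 for 39. The same counts over all genes were not taken, so these are not shown to be particular to the enzymes. Control replicate 2 also stood apart in the correlations over all probe sets. The genes of the UGT2 cluster, read with their neighbours SULT1B1 and SULT1E1, gave -0.11 to 0.06 (7 genes, 0 at p under 0.05), and the 6 genes of the CYP2A, CYP2B, CYP2F and CYP2S cluster gave -0.12 to 0.13.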
